A study of Mus musculus with 37 samples.

Results

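Livers labelled TDP-43Q331K were compared with livers labelled WT, with 4 libraries in each group. These 8 libraries are part of 37 in the series, and they were chosen by genotype and tissue label, not by any measured value. TDP-43Q331K is a mouse knock-in in which the glutamine named in Q331K of TDP-43, the protein of the gene Tardbp, is changed to lysine. All mice were aged 10 months, and total RNA was sequenced from whole liver. The other livers of the series, used below for a second test of the same allele, carried TMEM106B-/- with TDP-43Q331K (called the combined genotype) or TMEM106B-/- alone, with 4 libraries each. Cortex libraries labelled TDP-43Q331K (6) and WT (5) are set beside the liver at the end. Separate animals, sex, litter and the number of copies of the allele are not stated in the labels, so the p-values below reflect the spread among these libraries and no more. The allele is present in every cell of a knock-in, and no liver cell type was isolated.

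TDP-43 is a nuclear protein that binds UG-rich RNA and controls splicing, RNA stability and its own messenger RNA. Aggregates of it mark most cases of amyotrophic lateral sclerosis and many of frontotemporal dementia, and the Q331K change was found in patients with amyotrophic lateral sclerosis. In liver it has been studied much less than in neurons. Counts per gene carry no information on the changed codon, so the label is the only evidence of genotype.

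The RNA of the targeted gene gave no call. Tardbp was at 110, 99.8, 115 and 99.4 counts per 1 M (CPM) in the TDP-43Q331K libraries and at 111, 143, 106 and 102 CPM in WT. The groups overlapped, with WT replicate 2 the highest of the 8, and the log2 fold change was -0.12 ± 0.11 (SE, adjusted p = 0.632). Fold changes are on the log2 scale, TDP-43Q331K minus WT, from edgeR, and a gene was called at a Benjamini-Hochberg adjusted p under 0.05 over all 16710 genes tested. Tmem106b, the gene deleted in the other livers, was at -0.07 ± 0.15 (adjusted p = 0.864). Of 37 tested genes that start within 1 Mb of Tardbp, 0 were called by edgeR and 6 had an unadjusted p under 0.05 (16.2%), close to the 15.2% of all genes tested. The smallest adjusted p among these neighbours was 0.0773, for Ube4b, a ubiquitin ligase of the same chromosome (0.54 ± 0.12). Mtor, the growth-controlling kinase, stood at 0.39 ± 0.10 (adjusted p = 0.105).

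The libraries held 51.3 to 68.2 M counts in TDP-43Q331K and 56.5 to 71.1 M counts in WT. The common biological coefficient of variation of liver was 0.235. The median over genes of the standard deviation (SD) of log2 CPM within a group was 0.187 in TDP-43Q331K and 0.212 in WT. In WT, replicate 2 stood apart in stress genes, as described below.

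Few genes differed between the groups beyond that spread. Of 16710 genes tested, 26 were higher (0.156%) and 18 were lower (0.108%) in TDP-43Q331K livers, 44 in all (0.263%). At an unadjusted p under 0.05 there were 2547 genes (15.2%). Over all genes the median log2 fold change was -0.0087. Every one of the 44 had 4 TDP-43Q331K libraries on one side of all 4 WT libraries, a property shared by 684 genes on the higher side (4.09%) and 759 on the lower side (4.54%). Most changes were small: 24 of the 44 were under 2-fold. All 26 higher genes and 14 of the 18 lower genes were protein coding, and the 44 lay on 17 chromosomes, with 1 on chromosome 4, the chromosome of Tardbp.

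The number of calls moved with single libraries. It was 10, 13, 26 and 7 without TDP-43Q331K replicates 1, 2, 3 and 4, and 19, 8, 7 and 71 without WT replicates 1, 2, 3 and 4. The tool mattered as well, since DESeq2 called 212 genes higher (1.27%) and 189 lower (1.13%), and limma-voom 179 higher (1.07%) and 162 lower (0.969%). Genes called in all 8 of these reduced fits, and in each of 7 other settings, numbered 5: 5033403H07Rik, Ntrk2, Gm5626, Reep5 and Gm5096. A further 7 were called in at least 4 of the 8 (Sult1e1, Trim44, Praf2, Omd, Renbp, Gstp3 and Slc17a1). The 5 genes called in none of them were Cyb5r3, Map1lc3a, Tbc1d30, Acss2 and Gins1.

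**Figure D1:**
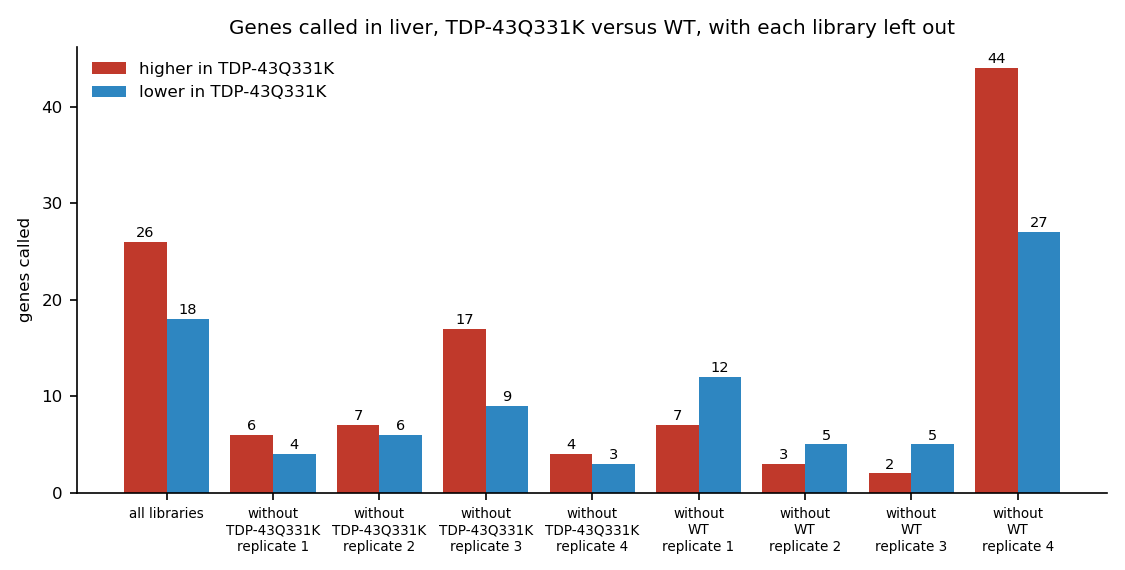
Number of genes called (vertical axis) with all libraries and with each library left out, higher in TDP-43Q331K in red and lower in blue. The totals run between 7 and 71 genes, and leaving out WT replicate 4 gives the highest.

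The transcript with the smallest p was lower. 5033403H07Rik, annotated as a processed transcript on chromosome 5 (GRCm38 chr5:52973012-52994436, minus strand), was at 10.2, 9.84, 10.7 and 9.12 CPM in TDP-43Q331K and at 18.97, 21.5, 20.96 and 20.4 CPM in WT. Neither group spread by more than a few CPM, and the gap between them was wider than both ranges. It was 2.05-fold lower (log2 fold change -1.04 ± 0.10, adjusted p = 0.000112). With each library left out in turn its adjusted p stayed between 0.000323 and 0.00135.

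Gm5626 fell too. It was at 1.48, 1.26, 1.89 and 1.21 CPM in TDP-43Q331K and at 4.72, 5.53, 4.70 and 3.60 CPM in WT (-1.67 ± 0.21, adjusted p = 0.00216). The lowest WT library was above the highest TDP-43Q331K library. Gm5626 is a processed pseudogene on chromosome 13 (GRCm38 chr13:74533526-74534583, plus strand) whose sequence is 95.24% identical, over 1050 aligned bases, to Stoml2, the gene of a mitochondrial inner membrane protein on chromosome 4. Over that length they differ at 44 positions plus 6 gap bases. A stretch of 60 bases from each is shown because these differences are what lets a read be counted for the pseudogene and not for the parent. It is the coding stretch of that length, without gaps, that has the most differences. Elsewhere the sequences are on average more alike. Capitals mark the 11 positions that differ between the stretches.
Gm5626 (GRCm38 chr13:74533572-74533631, plus strand): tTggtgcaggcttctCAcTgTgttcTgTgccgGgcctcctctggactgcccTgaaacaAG
Stoml2 (GRCm38 chr4:43031046-43031105, minus strand): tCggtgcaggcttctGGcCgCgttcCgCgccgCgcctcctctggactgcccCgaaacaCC
Stoml2 itself was at 44.4 ± 4.89 CPM in TDP-43Q331K and 44.6 ± 3.94 CPM in WT (SD, n = 4 each; -0.0074 ± 0.0974, adjusted p = 0.981). How reads that match both were counted is not given in the sources used here, so the level of Gm5626 is uncertain.

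Reep5, which bends the membrane of the endoplasmic reticulum into tubules, was at 10.1, 11.0, 9.45 and 10.5 CPM in TDP-43Q331K and at 18.2, 17.1, 18.7 and 18.8 CPM in WT. The groups did not overlap (-0.82 ± 0.11, adjusted p = 0.00532). It was the 1 called member of 17 tested genes for proteins that shape this organelle, whose median was -0.08. Over all genes 0.108% were called lower. Members of this and the later lists were chosen with earlier results of these data known. A count of calls is therefore not a test of any list. Its relative Reep6, which was not called, was at 0.56 ± 0.19 (adjusted p = 0.199), and the reticulon Rtn2 at -1.01 ± 0.33 (adjusted p = 0.185).

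Of the 44 called genes, Ntrk2 and Sult1e1 had the largest folds. Ntrk2 encodes TrkB, the receptor of brain-derived neurotrophic factor, and lies on chromosome 13 (GRCm38 chr13:58806569-59133970, plus strand). It was at 7.93, 16.6, 20.5 and 15.6 CPM in TDP-43Q331K and at 0.934, 0.851, 0.965 and 1.37 CPM in WT. Replicate 1 was the lowest of the TDP-43Q331K libraries and was still above every WT library. The gene was called at 3.87 ± 0.45 (adjusted p = 0.00216). It was the 1 called member of 11 tested neurotrophin receptors and ligands (0.156% of all genes were called higher), whose median was 0.03.

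Sult1e1, the sulfotransferase that inactivates estrogens, was at 1.67, 16.2, 54.4 and 21.2 CPM in TDP-43Q331K and at 0.294, 0.185, 0.028 and 0.254 CPM in WT. The TDP-43Q331K libraries spanned a wide range, with replicate 1 far below the others, and none reached down to a WT value. The log2 fold change was 6.95 ± 0.93 (adjusted p = 0.0103). The call was lost without WT replicate 2 or WT replicate 3 (adjusted p between 9.41e-05 and 0.0534 with each library left out). It was also lost with limma-voom (adjusted p = 0.126), when fitting the compared groups alone (0.101) and without the livers high in acute phase transcripts (0.0761). Of 9 tested sulfotransferases it was the 1 called (0.156% of all genes were called higher), and the median of the list was 0.10. Sult1b1, which acts on thyroid hormone and phenols, came next at 0.84 ± 0.18 (adjusted p = 0.0567).

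Both Ntrk2 and Sult1e1 belong to a list of genes known to be higher in female than in male liver. This list had 20 tested members, of which 2 were called higher and 0 lower, against 0.156% and 0.108% of all genes, and its median was -0.17. Lists and their members were chosen with earlier results of these data known, so this count is not a test of the list. Other members went different ways without passing the test. Cyp2b9, a cytochrome P450, was at 2.27 ± 0.76 (adjusted p = 0.204), whereas Cyp4a14, a fatty acid hydroxylase, was at -2.29 ± 0.86 (adjusted p = 0.241). Of 24 tested male-biased genes, 0 were called higher and 1 lower, with a median of -0.02. The lower one was Cspg5, a chondroitin sulfate proteoglycan, at 0.584, 0.597, 0.182 and 0.256 CPM in TDP-43Q331K and 5.38, 3.37, 2.84 and 1.10 CPM in WT (-2.96 ± 0.53, adjusted p = 0.0278). WT libraries varied several-fold for this gene, and its call was kept in 1 of the 8 fits that leave out a library. Cyp2d12, a cytochrome P450 and the 1 called member of 8 tested genes of the Cyp2d family, was 3.03 ± 0.58 (adjusted p = 0.0444), with 1.52, 0.830, 6.12 and 2.14 CPM in TDP-43Q331K and 0.0865, 0.426, 0.252 and 0.522 CPM in WT. The call of Cyp2d12 was kept in 2 of the 8 fits that leave out a library. It was lost with limma-voom (adjusted p = 0.0533), with no filter (0.0653) and with the replicate block (0.0624). Fitting the compared groups alone (0.119) or leaving out the livers high in acute phase transcripts (0.104) lost it too.

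**Figure D2:**
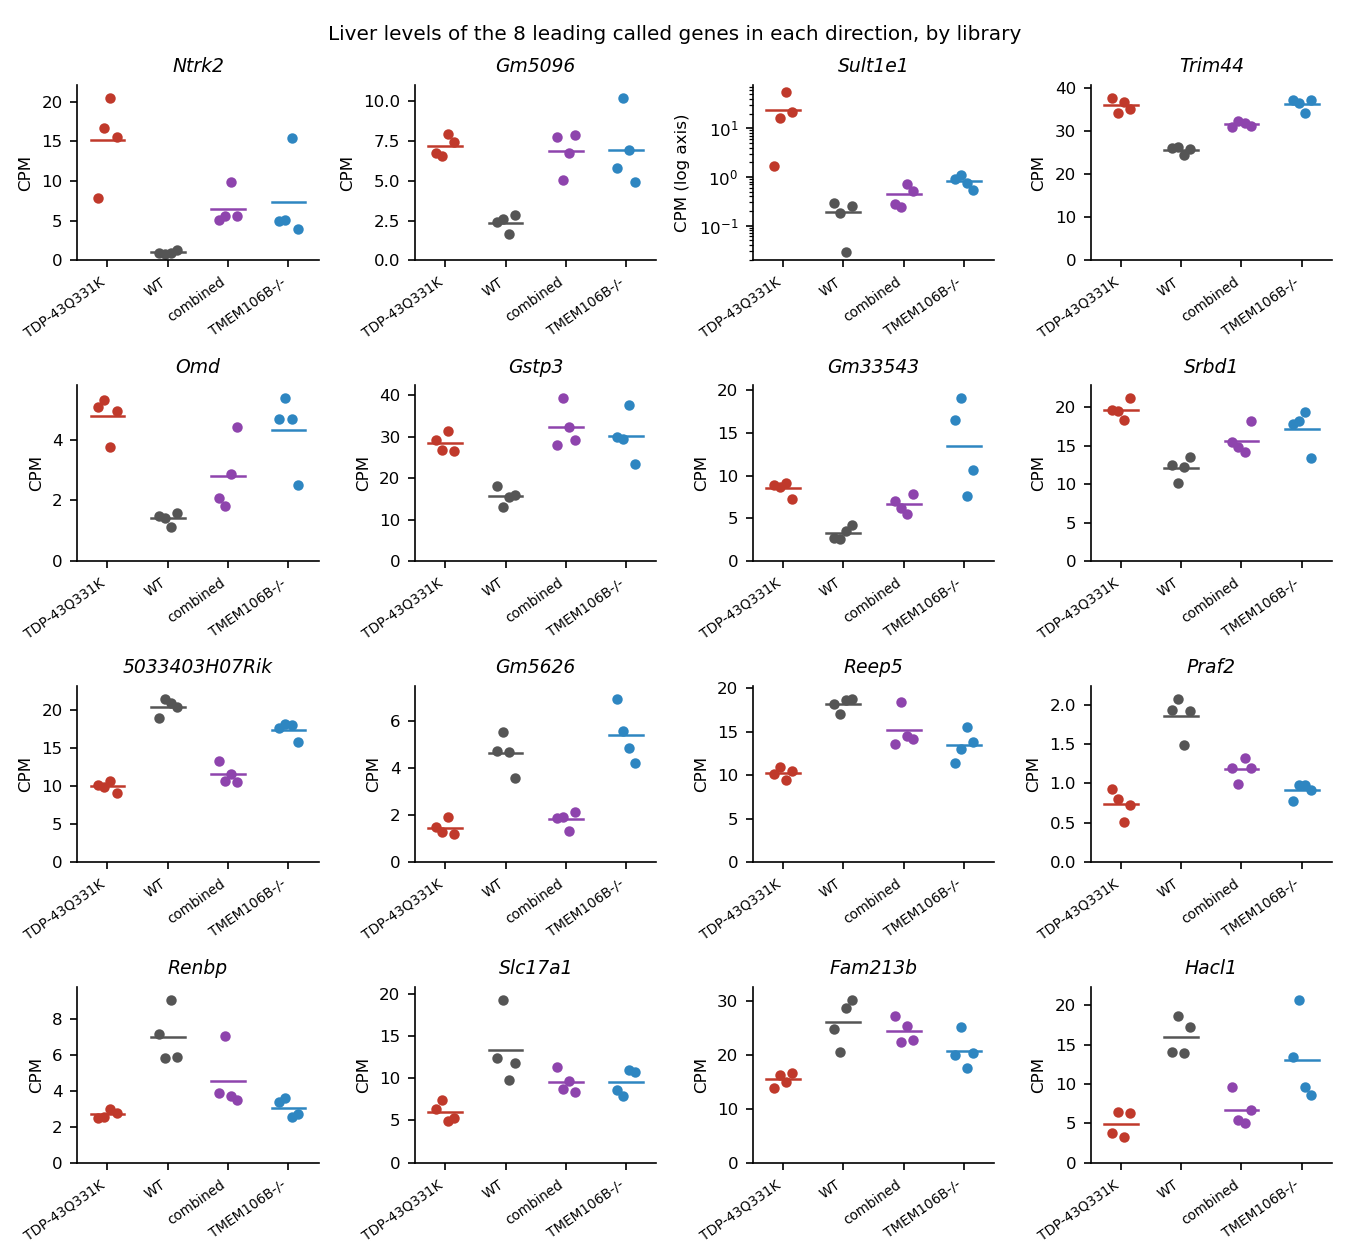
Level in each liver library (points, CPM; horizontal line, mean of 4) of the 8 called genes with the smallest p in each direction, for TDP-43Q331K, WT, the combined genotype and TMEM106B-/-. The axis of Sult1e1 is logarithmic and all others start at 0. For Ntrk2 the TDP-43Q331K libraries lie between 7.93 and 20.5 CPM and those of WT between 0.851 and 1.37 CPM.

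Bhmt and Gm5096 were higher, and their reads cannot be fully separated. Bhmt encodes betaine-homocysteine methyltransferase, a major liver enzyme that returns homocysteine to methionine with betaine as the methyl donor. It was at 4752, 3937, 4150 and 4452 CPM in TDP-43Q331K and at 1503, 1525, 1008 and 2636 CPM in WT. The highest WT library, replicate 4, was below the lowest TDP-43Q331K library (1.37 ± 0.27, adjusted p = 0.0468), and among the 8 fits that leave out a library the call was kept in 1, the fit without that WT library. Gm5096 was at 6.73, 6.52, 7.92 and 7.39 CPM in TDP-43Q331K and at 2.40, 2.57, 1.64 and 2.83 CPM in WT (1.596 ± 0.22, adjusted p = 0.00532). Its transcript is 99.36% identical to that of Bhmt over 1869 bases. The pseudogene Bhmt-ps1, 98.94% identical over 1224 bases, was at 1.74 ± 0.38 (adjusted p = 0.0644). How reads that match all of these were assigned is not given in the sources used here, so the level of Gm5096 is uncertain.

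The start regions of Ntrk2, Sult1e1 and Bhmt are shown because these genes had the largest folds or the highest level among the genes called higher. Each window holds 250 bases before and 50 bases from the start, from RefSeq (GRCm38.p6). Capitals mark AGGTCA or its reverse complement TGACCT, the half-site bound by many nuclear receptors. No match to these letters was found in the Ntrk2 window.
Ntrk2 (chr13:58806319-58806618, plus strand): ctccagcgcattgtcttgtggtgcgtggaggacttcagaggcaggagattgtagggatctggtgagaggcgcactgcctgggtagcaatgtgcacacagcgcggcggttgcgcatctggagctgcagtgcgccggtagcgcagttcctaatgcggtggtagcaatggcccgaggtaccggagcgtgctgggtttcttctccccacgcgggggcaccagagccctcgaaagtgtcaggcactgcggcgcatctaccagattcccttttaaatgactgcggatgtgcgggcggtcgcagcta
Sult1e1 (chr5:87591562-87591861, minus strand): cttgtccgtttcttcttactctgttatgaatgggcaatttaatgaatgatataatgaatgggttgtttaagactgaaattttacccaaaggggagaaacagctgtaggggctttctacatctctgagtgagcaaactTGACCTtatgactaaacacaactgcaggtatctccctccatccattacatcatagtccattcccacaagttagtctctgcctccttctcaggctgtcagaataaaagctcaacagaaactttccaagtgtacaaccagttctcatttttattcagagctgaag
Bhmt (chr13:93637709-93638008, minus strand): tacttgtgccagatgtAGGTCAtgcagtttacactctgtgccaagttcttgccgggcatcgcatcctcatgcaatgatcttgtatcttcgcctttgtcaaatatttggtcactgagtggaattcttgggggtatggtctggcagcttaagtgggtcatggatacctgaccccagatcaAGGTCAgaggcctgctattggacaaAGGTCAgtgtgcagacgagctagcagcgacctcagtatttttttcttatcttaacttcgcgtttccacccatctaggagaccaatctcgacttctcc
The window of Sult1e1 held 1 match and that of Bhmt 3. Of the 44 called genes, 30 had a window in this table, 36 windows in all. AGGTCA, on either strand, was found in 9 of these (25.0%) and in 16.3% of all 32851 windows. Those 9 belong to 6 of the 30 genes (20%), since Dhcr7 and Slc17a1 have several windows, and a match can lie in overlapping windows. TTCNNNGAA, the letters bound by STAT factors such as STAT5, was found in 3 of the 36 (8.33%) and in 8.3% of all windows. A match is a description of letters and not evidence of binding.

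Lipid synthesis gave 2 called genes, both higher, and 0.156% of all genes were called higher. Acss2, the enzyme that turns acetate into acetyl-CoA, was at 284, 264, 194 and 234 CPM in TDP-43Q331K and at 126, 81.8, 126 and 95.2 CPM in WT (1.18 ± 0.24, adjusted p = 0.0494). The groups did not overlap, yet the call was lost with any 1 of the 8 libraries left out. Of 22 tested fatty acid synthesis genes, 1 was called higher and 0 lower by edgeR (6 higher by DESeq2, 5 by limma-voom), 19 had a positive fold change, 5 were higher without overlap (4.09% of all genes), and the median was 0.54. Scd1, which puts the double bond into stearate, was next at 1.18 ± 0.26 (adjusted p = 0.0662). Me1, a source of NADPH for this pathway, was at 0.92 ± 0.24 (adjusted p = 0.119). Without WT replicate 2 the median of the list was 0.32.

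Dhcr7, the reductase of the last step of cholesterol synthesis, was at 88.2, 83.3, 70.7 and 74.2 CPM in TDP-43Q331K and at 46.4, 40.6, 51.0 and 53.1 CPM in WT (0.73 ± 0.15, adjusted p = 0.0474). It was the 1 called gene of 25 tested in that pathway (0.156% of all genes were called higher), with a list median of 0.14. Its call was kept in 1 of the 8 fits that leave out a library. Nsdhl, another enzyme of the pathway, was at 0.58 ± 0.17 (adjusted p = 0.152). Cyb5r3, the reductase that passes electrons from NADH to cytochrome b5 for desaturation, was at 1033, 943, 842 and 869 CPM in TDP-43Q331K and at 682, 582, 568 and 607 CPM in WT (0.60 ± 0.12, adjusted p = 0.0468).

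Other enzymes and carriers of small molecules were higher. Gstp3, a glutathione S-transferase, was at 29.1, 26.7, 31.4 and 26.5 CPM in TDP-43Q331K and at 18.1, 12.97, 15.6 and 16.03 CPM in WT (0.86 ± 0.14, adjusted p = 0.0219). Aldh1a7, an aldehyde dehydrogenase, was at 321, 297, 258 and 280 CPM in TDP-43Q331K and at 192, 169, 165 and 202 CPM in WT (0.67 ± 0.12, adjusted p = 0.0278). In both genes the groups were apart. They were the 2 called members, both higher, of 26 tested genes, namely those of the drug-sensing receptors CAR and PXR and genes driven by them. The list median was 0.22, and 7 members were higher and 1 lower without overlap (26.9% and 3.85%, against 4.09% and 4.54% of all genes). Of all genes 0.156% were called higher, and members were chosen with earlier results of these data known. The list summed to 9367, 9293, 7452 and 10227 CPM in TDP-43Q331K and to 8454, 6317, 8589 and 8699 CPM in WT. These sums overlapped, with WT replicate 2 the lowest. Ces2g, a carboxylesterase (0.71 ± 0.14, adjusted p = 0.0444), Tpmt, which methylates thiopurine drugs (0.60 ± 0.12, adjusted p = 0.0472), and Slc23a1, a vitamin C transporter (0.73 ± 0.14, adjusted p = 0.0462), rose as well. Abcb8, a transporter of the mitochondrial inner membrane, rose by 0.58 ± 0.11 (adjusted p = 0.0444). Mpv17l, related to a mitochondrial channel protein, rose by 0.97 ± 0.19 (adjusted p = 0.0444).

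Among the remaining higher genes, Trim44, a tripartite motif protein, had one of the narrowest spreads. It was at 37.7, 34.2, 36.6 and 35 CPM in TDP-43Q331K and at 25.9, 26.2, 24.5 and 25.8 CPM in WT (0.49 ± 0.07, adjusted p = 0.0111). The change was 1.4-fold, and the groups lay far apart relative to their ranges. The call was lost without TDP-43Q331K replicate 1 or without WT replicate 3. Omd, a small keratan sulfate proteoglycan of the matrix, was at 5.09, 5.31, 3.75 and 4.96 CPM in TDP-43Q331K and at 1.505, 1.42, 1.13 and 1.59 CPM in WT (1.76 ± 0.27, adjusted p = 0.0118). That call was lost without TDP-43Q331K replicate 4 and without WT replicate 2 or 3. Gm33543, annotated as protein coding, was at 8.95, 8.64, 9.18 and 7.28 CPM in TDP-43Q331K and at 2.73, 2.63, 3.54 and 4.22 CPM in WT (1.37 ± 0.24, adjusted p = 0.0267).

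Srbd1, an RNA-binding domain protein, was at 19.7, 19.6, 18.3 and 21.2 CPM in TDP-43Q331K and at 12.5, 10.2, 12.3 and 13.5 CPM in WT (0.70 ± 0.12, adjusted p = 0.0278). Exoc4, a subunit of the exocyst that tethers secretory vesicles, was at 14.6, 14.1, 14.3 and 16.4 CPM in TDP-43Q331K and at 9.96, 8.73, 8.53 and 10.7 CPM in WT (0.65 ± 0.12, adjusted p = 0.0355). It was the 1 called gene of 9 exocyst subunits (0.156% of all genes were called higher), whose median was 0.11. Exoc2 was at 0.16 ± 0.11 (adjusted p = 0.512). Wif1, a secreted inhibitor of Wnt ligands, rose by 2.28 ± 0.43 (adjusted p = 0.0404), with 0.454, 0.813, 1.09 and 1.19 CPM in TDP-43Q331K and 0.259, 0.111, 0.140 and 0.212 CPM in WT. It was the 1 called member of 29 tested Wnt and liver zonation genes, with a list median of 0.16. Axin2, a target and inhibitor of Wnt signalling, was at 1.04 ± 0.30 (adjusted p = 0.149).

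The other 5 genes called higher lay between 0.48 and 1.47 on the log2 scale. Hltf, a helicase-like protein of DNA damage tolerance, rose by 0.48 ± 0.09 (adjusted p = 0.0462), and Gins1, a subunit of a replication complex, by 0.68 ± 0.14 (adjusted p = 0.0494). Rarres1, a gene induced by retinoic acid in human cells, rose by 1.03 ± 0.20 (adjusted p = 0.0451). Tbc1d30, which belongs to a family of Rab regulators, rose by 1.47 ± 0.29 (adjusted p = 0.0472). The change of 1810055G02Rik, a gene with no name beyond its clone, was 1.17 ± 0.21 (adjusted p = 0.0278).

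Among the lower genes, 2 lie on the X chromosome. Praf2, a membrane protein that binds small GTPases, was at 0.924, 0.796, 0.510 and 0.723 CPM in TDP-43Q331K and at 1.94, 2.07, 1.48 and 1.92 CPM in WT (-1.32 ± 0.21, adjusted p = 0.0118). Renbp, an epimerase of amino sugars, was at 2.50, 2.56, 2.97 and 2.77 CPM in TDP-43Q331K and at 7.16, 5.81, 9.08 and 5.88 CPM in WT (-1.37 ± 0.22, adjusted p = 0.0146). TDP-43Q331K libraries were tightly grouped for Renbp and those of WT were not. The call of Praf2 was lost without TDP-43Q331K replicate 4 or WT replicate 2, and that of Renbp without TDP-43Q331K replicate 1, 2 or 4 or WT replicate 3.

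Lower carriers and lipid enzymes included Slc17a1, a urate and phosphate carrier of the sodium phosphate family. It was at 6.34, 7.47, 4.90 and 5.29 CPM in TDP-43Q331K and at 12.3, 19.3, 9.82 and 11.8 CPM in WT (-1.15 ± 0.20, adjusted p = 0.0249). Of 19 tested carriers of phosphate and organic anions it was the 1 called, with a list median of 0.04, and the neighbouring family member Slc17a2 was at -0.54 ± 0.15 (adjusted p = 0.124). Hacl1, the lyase of peroxisomal alpha-oxidation, was at 3.73, 6.39, 3.31 and 6.33 CPM in TDP-43Q331K and at 14.03, 18.7, 13.99 and 17.2 CPM in WT (-1.69 ± 0.29, adjusted p = 0.0267). It was the 1 called member of 37 tested peroxisome genes, and the list median was 0.12. Of all genes 0.108% were called lower. Ehhadh, an enzyme of peroxisomal beta-oxidation, was at 0.71 ± 0.18 (adjusted p = 0.105). Fam213b, a prostamide synthase, was at 13.9, 16.3, 15.1 and 16.7 CPM in TDP-43Q331K and at 24.8, 20.7, 28.7 and 30.3 CPM in WT (-0.75 ± 0.13, adjusted p = 0.0267). Pla2g12a, a secreted phospholipase, fell by 0.95 ± 0.17 (adjusted p = 0.0278).

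The lower genes of nucleic acid and protein turnover, namely Rnaseh2c, Dnase2a and Map1lc3a, changed by less than 2-fold. Rnaseh2c, a subunit of the nuclease that removes RNA from DNA hybrids, was at 51.4, 51.2, 49.96 and 47.7 CPM in TDP-43Q331K and at 71.9, 81.8, 70.8 and 68.7 CPM in WT (-0.55 ± 0.10, adjusted p = 0.0278). Dnase2a, the acid nuclease of lysosomes, fell by 0.59 ± 0.12 (adjusted p = 0.0494). Map1lc3a, an LC3 protein of autophagosomes, fell by 0.56 ± 0.11 (adjusted p = 0.0472). It was the 1 called gene of 35 tested for autophagy (0.108% of all genes were called lower), with a list median of 0.08. Pdcd5 (-0.48 ± 0.10, adjusted p = 0.0472), Abhd8 (-0.75 ± 0.15, adjusted p = 0.0462) and Tle6, of the family of Groucho co-repressors (-0.83 ± 0.16, adjusted p = 0.0411), were also lower. So were Gm42067 (-1.03 ± 0.19, adjusted p = 0.0393) and Gm44096 (-0.90 ± 0.18, adjusted p = 0.0462), which were not annotated as protein coding.

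Some of these values share sequence or position with other genes. A stretch of at least 200 bases at 95% identity or more with another gene's transcript was found for 15 of the 44, and 8 were overlapped on the opposite strand by a gene at 1 CPM or more. Hacl1 is overlapped by Btd, the biotin-recycling enzyme biotinidase, which was at -0.43 (adjusted p = 0.0575). The other 7 overlapping genes had adjusted p-values between 0.324 and 0.834. The library kit was directional, but the strand setting used in counting is not given in the sources used here, so reads of such partners may not be told apart.

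Lists of genes for liver pathways, organelles and cell types were counted for calls by edgeR. Of 50 lists, with 1005 different gene names, 36 had no called member. Of the 44 called genes, 14 belonged to any list, and 0.263% of all genes tested were called. Lists and members were chosen with earlier results of these data known, so these counts are not a test of the lists. Among known RNA targets of TDP-43, 16 were tested, 0 were called (1 at an unadjusted p under 0.05), 0 were higher and 1 lower without overlap (4.09% and 4.54% of all genes), and the median was 0.01. Sort1, a target whose splicing TDP-43 controls in brain, was at -0.33 ± 0.27 (adjusted p = 0.589), and Adnp2 at -0.57 ± 0.21 (adjusted p = 0.218). Counts per gene do not show splicing. Of 36 hnRNP and SR splicing factors, 0 were called (4 at an unadjusted p under 0.05) and the median was -0.03. Of 27 genes linked to amyotrophic lateral sclerosis and frontotemporal dementia, 0 were called (6 at an unadjusted p under 0.05) and the median was -0.07. Over all genes 15.2% had an unadjusted p under 0.05. Without overlap, 1 of the 27 was higher and 3 lower (3.70% and 11.1%, against 4.09% and 4.54% of all genes). Their sums were apart, at 3604 to 3880 CPM in TDP-43Q331K and 4019 to 4462 CPM in WT. In the combined genotype against TMEM106B-/- their median was 0.01 and the sums overlapped. DESeq2 and limma-voom also called 0 in each of these 3 lists.

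Cytosolic ribosomal protein genes had mostly negative fold changes, with no call by edgeR. Of 64 tested, 0 were called by edgeR or limma-voom and 3 lower by DESeq2, 38 had an unadjusted p under 0.05, 59 had a negative fold change, 28 were lower without overlap (43.8%, against 4.54% of all genes), and the median was -0.28. Rps20 was at 96.0, 92.0, 75.7 and 78.7 CPM in TDP-43Q331K and at 102, 136, 111 and 128 CPM in WT (-0.48 ± 0.13, adjusted p = 0.119). All 4 TDP-43Q331K libraries were below the WT libraries, by a small margin at the nearest pair. The median lay between -0.32 and -0.19 over the other settings, libraries left out included. In the combined genotype against TMEM106B-/- the median of this list was -0.19.

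**Figure D3:**
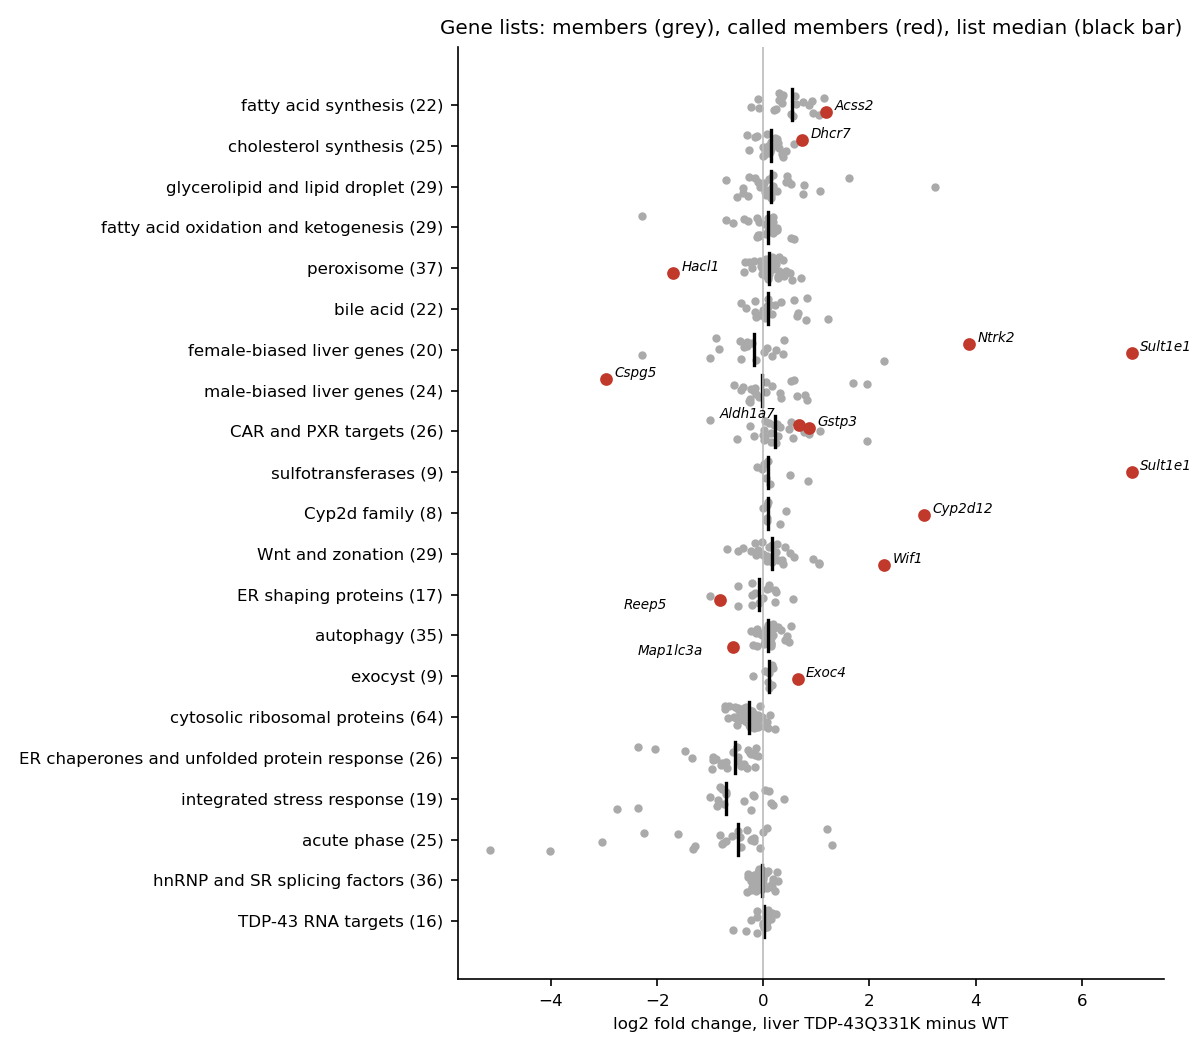
Log2 fold change in liver, TDP-43Q331K minus WT, of the members of 21 gene lists (points; called members in red with their names; black bar, list median; number tested in brackets). The ribosomal protein members lie mostly below 0, with a median of -0.28, and the red points farthest to the right are those of Sult1e1 and Ntrk2.

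Cell type markers were checked next, in 13 lists with 116 tested genes. Of these edgeR called 0, with 39 at an unadjusted p under 0.05, whereas DESeq2 called 1 higher and 6 lower and limma-voom 0 higher and 10 lower. The tissue label held: all 12 hepatocyte markers were tested, and they summed to between 106350 and 134451 CPM in TDP-43Q331K and between 110639 and 135361 CPM in WT. All 19 markers of Kupffer cells, the resident macrophages of liver, had a negative fold change, with a median of -0.61 and 2 lower without overlap (10.5%, against 4.54% of all genes). Of the 19, 13 had an unadjusted p under 0.05, and 1 was called lower by limma-voom and 0 by DESeq2. Their sum was 240, 291, 324 and 343 CPM in TDP-43Q331K and 356, 354, 419 and 595 CPM in WT. The sums did not overlap, and WT replicate 4 was the highest. Without that library the median was -0.36. In the combined genotype against TMEM106B-/- the median of these markers had the opposite sign, at 0.21. In bulk liver, fewer cells of a type and less RNA per cell cannot be told apart. C1qa, a complement gene of macrophages, was at -0.73 ± 0.24 (adjusted p = 0.193).

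Sinusoidal endothelial markers, 13 tested, also had negative fold changes without exception, with a median of -0.28, and 3 were called lower by DESeq2 and by limma-voom. They summed to 254, 253, 279 and 247 CPM in TDP-43Q331K and to 300, 281, 369 and 312 CPM in WT. These sums were apart by a narrow margin. The endothelial median in the combined genotype against TMEM106B-/- had the opposite sign, at 0.29. Egfl7, secreted by endothelium, was at -0.61 ± 0.14 (adjusted p = 0.0662). Neutrophil markers summed to 3.42, 4.16, 4.33 and 5.41 CPM in TDP-43Q331K and to 5.79, 20.2, 7.17 and 5.74 CPM in WT, with Ly6g at 0 in all 8. The sums were apart, with WT replicate 2 far above the rest. Adipocyte markers summed to 3934, 3550, 4182 and 4335 CPM in TDP-43Q331K and to 3007, 2711, 1966 and 2798 CPM in WT. Nearly all of that sum came from Car3, a carbonic anhydrase also abundant in liver, which was at 3910, 3522, 4165 and 4317 CPM in TDP-43Q331K and at 2985, 2695, 1941 and 2771 CPM in WT. The sums of the other 8 marker lists overlapped between the groups.

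Red blood cell markers, 5 tested, had a median of -0.87 and 4 negative fold changes, and 4 were called lower by limma-voom, 2 by DESeq2 and 0 by edgeR. The remaining tested marker was at 0.29. The sums of the list overlapped, at 106 to 130 CPM in TDP-43Q331K and 96.7 to 131 CPM in WT. A sum follows its most abundant members, and Hbb-bt, given below, was a small part of it. In the combined genotype against TMEM106B-/- the list median had the opposite sign, at 0.56. Hbb-bt, a beta globin gene, was at 1.26, 1.03, 0.746 and 1.21 CPM in TDP-43Q331K and at 1.70, 1.54, 2.83 and 3.20 CPM in WT. The groups did not overlap (-1.12 ± 0.30, edgeR adjusted p = 0.121, DESeq2 adjusted p = 0.0176). Hba-a2, an alpha globin gene, overlapped between the groups and was at -1.23 ± 0.35 (edgeR adjusted p = 0.136). Globin genes have near-identical copies, so the level of each is uncertain. T and NK cell markers, 10 tested, had a median of -0.71 with 9 negative fold changes, and 2 were called lower by limma-voom, 1 by DESeq2 and 0 by edgeR. Their median in the combined genotype against TMEM106B-/- was -0.21. All of these T and NK cell markers were low, with summed levels between 4.10 and 5.83 CPM in TDP-43Q331K and between 4.26 and 8.31 CPM in WT. Amy2a5 of exocrine pancreas and Gap43 of neurons were at 0 in all 8 libraries. The part of cell composition in the 44 calls was not tested.

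**Figure D4:**
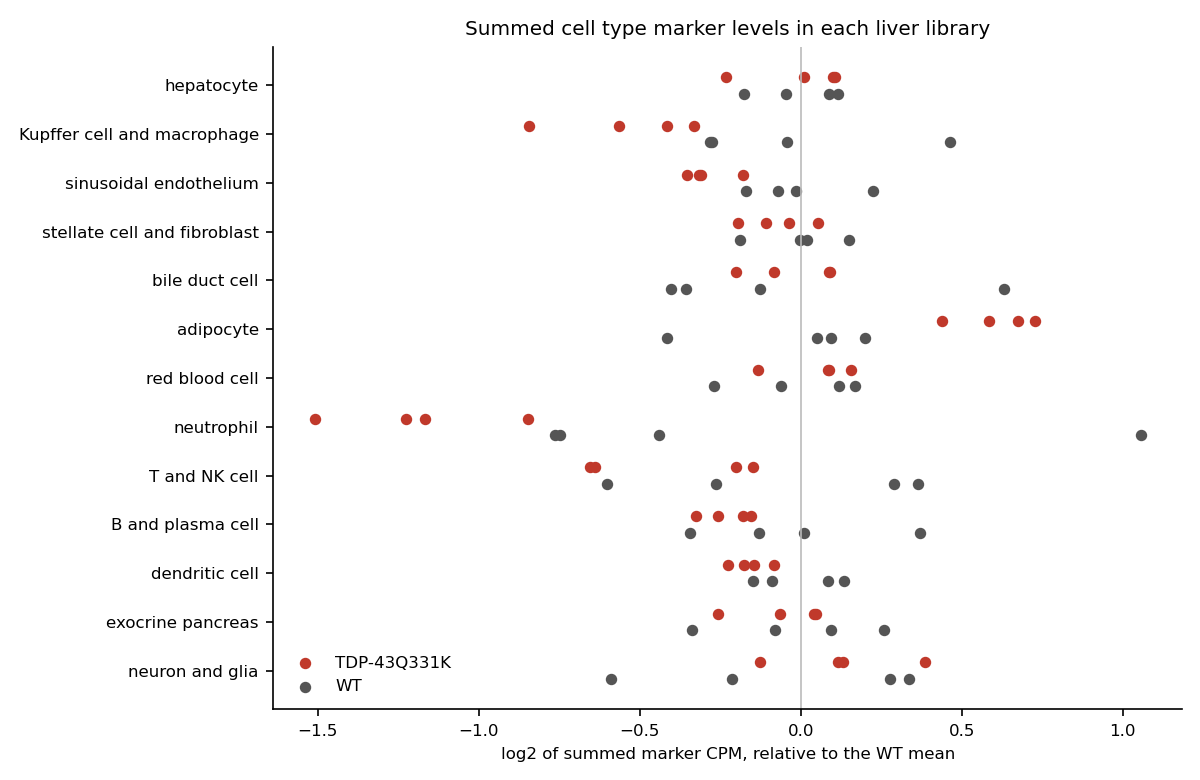
Summed CPM of each cell type marker list in each library, as log2 relative to the WT mean (horizontal axis), with TDP-43Q331K in red above WT in grey. Kupffer cell sums run between 240 and 343 CPM in TDP-43Q331K and between 354 and 595 CPM in WT, and hepatocyte sums overlap.

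Lists of stress genes had negative medians, which lay closer to 0 without WT replicate 2. Of 26 tested endoplasmic reticulum chaperone and unfolded protein response genes, 0 were called by edgeR (1 lower by DESeq2 and 1 by limma-voom, 10 at an unadjusted p under 0.05) and 26 had a negative fold change, with a median of -0.53, or -0.33 without WT replicate 2. The integrated stress response list had a median of -0.70 with 0 called of 19 by edgeR, DESeq2 or limma-voom (7 at an unadjusted p under 0.05), and -0.34 without that library. Without WT replicate 1, 3 or TDP-43Q331K replicate 3 it was -0.19, -0.38 or -0.44. Ddit3, the transcription factor CHOP, was at 4.52, 6.57, 6.01 and 6.15 CPM in TDP-43Q331K and at 8.49, 98.2, 6.74 and 6.85 CPM in WT. Only WT replicate 2 was far from the others. Heat shock chaperones had a median of -0.41, or -0.15 without WT replicate 2, and acute phase genes -0.47, or -0.21 without it, with 0 called in both by any of the 3 tools (4 and 7 at an unadjusted p under 0.05). WT replicate 1 was also high in some of these lists. The endoplasmic reticulum list summed to 7780, 11125, 4861 and 4859 CPM in WT, against 4141 to 5549 CPM in TDP-43Q331K. Heat shock chaperones summed to 5140, 6679, 3106 and 3730 CPM in WT, against 3430 to 4276 CPM in TDP-43Q331K.

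The same allele could be tested a second time in livers without TMEM106B, in 8 libraries that the first comparison does not use. There the combined genotype against TMEM106B-/- gave 81 genes higher (0.485%) and 92 lower (0.551%), 173 in all (1.04%). The genes called in both comparisons numbered 4, which is 9.09% of the 44 and 2.31% of the 173. Both fits share the estimate of spread but no library.

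Of these 4, 3 moved the same way. 5033403H07Rik was at 13.3, 10.7, 11.7 and 10.6 CPM in the combined genotype and at 17.7, 18.2, 18.04 and 15.9 CPM in TMEM106B-/- (-0.59 ± 0.10, adjusted p = 0.00537). Gm5626 was at 1.88, 1.93, 1.33 and 2.14 CPM in the combined genotype and at 6.94, 5.60, 4.84 and 4.23 CPM in TMEM106B-/- (-1.57 ± 0.21, adjusted p = 0.00106). Exoc4 was at 21.02, 21.3, 19.2 and 17.6 CPM in the combined genotype and at 12.4, 12.3, 15.2 and 10.5 CPM in TMEM106B-/- (0.65 ± 0.12, adjusted p = 0.0114). In each of the 3 the combined genotype and TMEM106B-/- did not overlap. The difference between the backgrounds was not called for 5033403H07Rik (0.45 ± 0.14, adjusted p = 0.134), Gm5626 (0.10 ± 0.29, adjusted p = 0.903) or Exoc4 (0.0058 ± 0.17, adjusted p = 0.991). The fourth, Gm33543, went the opposite way, at 7.01, 6.16, 5.54 and 7.82 CPM in the combined genotype and 16.4, 19.01, 7.62 and 10.7 CPM in TMEM106B-/- (-1.02 ± 0.23, adjusted p = 0.0445). In TDP-43Q331K against WT, the calls of Exoc4 and Gm33543 were each kept in 1 of the 8 fits that leave out a library.

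The other 40 called genes were not called without TMEM106B. Over the 44, the median absolute log2 fold change was 0.92 in TDP-43Q331K against WT and 0.19 in the combined genotype against TMEM106B-/-, and 23 of the 44 were under 0.2 in the second. The first value is raised by the choice of these genes for their change in that comparison. The sign was the same in 19 of the 44 (43.2%), and in 45.8% of all genes tested. The difference between the effects was called for 115 of all genes (0.688%), with 57 positive (0.341%) and 58 negative (0.347%). Of the 26 higher genes 10 were called there, all negative, and of the 18 lower genes 9, all positive. The WT and TDP-43Q331K libraries that chose the 44 enter this difference, so it is not independent of the choice.

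Ntrk2 was at 5.15, 5.54, 9.87 and 5.59 CPM in the combined genotype and at 5.03, 5.07, 15.4 and 4.02 CPM in TMEM106B-/-. Both sets lay above every WT library and overlapped each other (-0.18 ± 0.39, adjusted p = 0.897). The difference between backgrounds was -4.05 ± 0.58 (adjusted p = 0.00542). Sult1e1 reached at most 1.09 CPM in any of these 8 libraries (-0.90 ± 0.82, adjusted p = 0.693; difference -7.85 ± 1.22, adjusted p = 0.0111). Reep5 was at 13.6, 18.4, 14.5 and 14.1 CPM in the combined genotype and at 11.4, 13, 15.5 and 13.9 CPM in TMEM106B-/- (0.17 ± 0.11, adjusted p = 0.542; difference 0.997 ± 0.16, adjusted p = 0.00897). Its level there overlapped in the 2 groups. The gene with the smallest p in the difference was Hsd3b5, a male-specific steroid dehydrogenase of liver, at -0.25 ± 0.23 in TDP-43Q331K against WT and -3.93 ± 0.26 in the combined genotype against TMEM106B-/- (difference adjusted p = 6.88e-05).

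**Figure D5:**
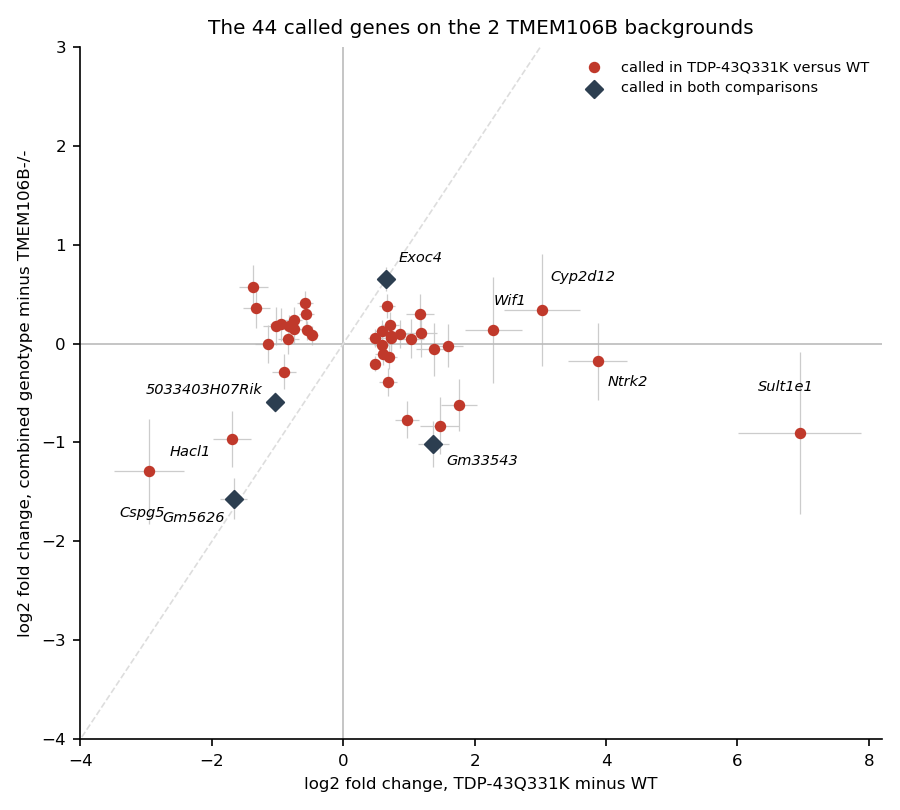
Log2 fold change ± SE of the 44 called genes in TDP-43Q331K minus WT (horizontal axis) and in the combined genotype minus TMEM106B-/- (vertical axis), with the line of equal change dashed. The 4 genes called in both are dark diamonds. Most points lie near 0 on the vertical axis, and Exoc4, Gm5626 and 5033403H07Rik are called on the same side of 0 in both.

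In cortex, where Tardbp has been studied most, TDP-43Q331K against WT gave 0 calls of 21248 genes with edgeR (0.0%). At an unadjusted p under 0.05 there were 1036 (4.88%), DESeq2 called 4 higher (0.0188%) and 6 lower (0.0282%), and limma-voom 5 higher (0.0235%) and 6 lower (0.0282%). Of the 44 liver genes, 32 were tested in cortex. None was called there, 3 had an unadjusted p under 0.05, 20 had the sign they had in liver, and the largest absolute log2 fold change was 0.40. The share of all genes with the same sign in both tissues is not given here, so the 20 have no background to be read against. Ntrk2 was at 883 ± 40.2 CPM in TDP-43Q331K cortex and 847 ± 29.5 CPM in WT cortex (SD, n = 6 and n = 5; 0.06, edgeR adjusted p = 0.9999). Sult1e1, Gm5626, Gm5096 and 5033403H07Rik did not pass the filter on low counts in cortex. Exoc4 was at 119 ± 1.24 CPM in TDP-43Q331K cortex and 115 ± 2.64 CPM in WT cortex (0.05, edgeR adjusted p = 0.9999). The difference between liver and cortex was not tested.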

How the data were processed

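RNA-seq libraries were made with a directional kit from 700 ng of total RNA, per the labels' protocols. Trim Galore, cutadapt and FastQC were used on the reads, and builds GRCm38 and mm10 are named, per the submitters' processing notes. Which aligner and counter were run, and with which strand setting, is not given in the sources used here. Analysed were the counts the authors deposited, whole numbers per gene and not normalized. All 55536 identifiers of each table matched GENCODE M21. Of the cortex columns, 1 matched no labelled sample and was left out.

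Groups came from the labels. Each tissue was fitted with all its genotypes in R 4.3.3 with edgeR 4.0.16 (filterByExpr with minimum count 10 and minimum total 15, TMM scaling, robust quasi-likelihood test, two-sided, Benjamini-Hochberg adjustment). CPM are counts over TMM-scaled library sizes. Residual degrees of freedom were 12 in liver and 17 in cortex. Named were Tardbp, Tmem106b, every called gene, called and leading list members, neighbours of Tardbp, and the 6 genes with the smallest p in the difference. Some items that this rule takes in are not reported here. Members and lists were chosen with earlier results of these data known. No set test was run. Alternatives were DESeq2 1.42.0, limma-voom (limma 3.58.1) with quality weights, RLE factors, no filter, replicate block, only the compared groups, each library left out, and leaving out 3 livers high in acute phase transcripts. Copies were found with blastn 2.17.0.

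On simulated liver data for TDP-43Q331K against WT (16521 genes), 18% of 1.5-fold and 95% of 3-fold changes were recovered, with 4.24% false calls. Libraries were simulated independently, with no shift shared by many genes of a library, and the lowest genes were given no change. These rates may therefore not hold for the real calls. The liver libraries held 50.5 to 74.1 M counts. No pair of libraries in a liver group was a duplicate: the smallest chi-square per degree of freedom was 29.9.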

Additional observations from a re-analysis of the deposited data

Results flagged for a closer look

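A library was set apart where its gap to the nearest of the other 3 took up more of the group's range than Dixon's 95% critical value allows. This held in 23 of 412 groups of 4 libraries, and chance alone gives about 1 in 20. Of these, WT replicate 2 was high in Ddit3 (98.2 CPM), Atf3 (23.9 CPM), Igfbp1 (338 CPM), Dnajb1 (216 CPM), S100a8 (3.22 CPM) and the summed neutrophil markers (20.2 CPM). It was low in Pgd (28.9 CPM), in the summed fatty acid oxidation genes (6186 CPM) and in the summed CAR and PXR targets (6317 CPM). WT replicate 1 stood apart in Scd1 (4595 CPM) and in the summed phosphate and anion carriers (2848 CPM), and WT replicate 3 in the summed lipoprotein genes (68644 CPM).

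Among TDP-43Q331K livers, replicate 1 was apart in the summed splicing factors (3408 CPM), replicate 2 in Pdcd5 (23.3 CPM) and Agtrap (4.15 CPM), replicate 3 in Axin2 (19.4 CPM) and the summed phosphate and anion carriers (2214 CPM), and replicate 4 in Adgre1 (1.78 CPM). In the combined genotype the values apart were those of Ntrk2 in replicate 3 (9.87 CPM), Renbp in replicate 2 (7.03 CPM), Abcb8 in replicate 1 (40.7 CPM) and Map1lc3a in replicate 4 (53.1 CPM). In TMEM106B-/-, Ntrk2 was apart in replicate 3 (15.4 CPM).

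The effect of TDP-43Q331K differed between the livers without and with TMEM106B for 27 of 107 named genes, against 0.688% of all genes tested, by edgeR's test of the difference (the effect without TMEM106B minus the effect with it, log2 scale). The difference was negative for Ntrk2 (-4.05), Gm5096 (-1.62), Sult1e1 (-7.85), Trim44 (-0.69), Omd (-2.38), Gm33543 (-2.39), Srbd1 (-0.84), Mpv17l (-1.74), Tbc1d30 (-2.30) and Gins1 (-1.07). It was positive for Reep5 (0.997), Praf2 (1.68), Renbp (1.94), Fam213b (0.99), Rnaseh2c (0.68), Pla2g12a (1.14), Gm42067 (1.21), Map1lc3a (0.86) and Dnase2a (0.998). These 19 had been called in TDP-43Q331K against WT, which uses libraries of the difference. The 6 genes with the smallest p in this difference, Gm33543 among them, were named for that p, so the count of 27 is raised by how the genes were chosen. Of the others, it was positive for Cyp2b9 (5.19), Egfl7 (0.90), Gpat3 (2.91) and Tceal8 (2.47), and negative for Ugt2b38 (-5.45), Cyp4a12b (-3.29), Gm3839 (-2.95) and Hsd3b5 (-3.68). Their causes were not tested.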

How the results depend on the processing

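In liver, TDP-43Q331K against WT gave 44 calls, 401 by DESeq2, 341 by limma-voom, 20 when fitting the compared groups alone, 12 without the high acute phase livers, and 7 to 71 with each library left out. RLE factors gave 42 and no filter 49. With the replicate block there were 13 calls. The labels do not say what the numbers share. Correlations of same-numbered libraries were 0.095 to 0.347, not all above 0.1, and 3 of 4 TDP-43Q331K libraries correlated best with the WT library of their number, a hint of pairing from the data and not from the design. In the combined genotype against TMEM106B-/-, the count was 173, or 536 by DESeq2, 376 by limma-voom, 81 when fitting the compared groups alone and 77 to 155 with each library left out (134 with the replicate block). For the difference it was 115, or 600 by DESeq2, 320 by limma-voom and 51 to 189 with each library left out (92 with the replicate block). Cortex had 0 calls, 10 by DESeq2, 11 by limma-voom, 1 with the replicate block, 2 when fitting the compared groups alone and 0 with each library left out. The causes were not tested. Tmem106b in liver (-0.07) changed sign with limma-voom (0.10), without WT replicate 1 (0.017) and without TDP-43Q331K replicate 3 (0.071), never with a call, and lay between -0.19 and 0.071 with each library left out. No called gene changed sign in any setting. Depth limits the lowest genes most: 16 of the 44 had a mean of 1 to 10 CPM and 1 was lower.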
